A study of Homo sapiens with 12 samples.

Results

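Metallothioneins are small cysteine-rich proteins that bind zinc and copper, and the genes described here are 6 of them together with the 2 genes that link them to zinc traffic. The 6 are MT1E, MT1F, MT1G, MT1M, MT1X and MT2A. The other 2 are MTF1, the zinc-sensing transcription factor, and SLC30A1, the zinc exporter of the cell surface. They were taken by gene name, 8 of the 58676 genes in the deposited expression table, and all 8 names were found there.

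The cells were A549, an established human lung carcinoma line, as a control line and as 2 lines with a knockout of NFE2L1, KO1 and KO2. NFE2L1 encodes a transcription factor that raises proteasome gene expression when the proteasome is inhibited. Each line received DMSO vehicle or bortezomib, a proteasome inhibitor, at 200 nM for 4 h, and each of the 6 groups had 2 RNA sequencing libraries, 12 in all. The labels do not say how the knockouts were made, whether each line is a single clone, or whether the libraries of a group came from separate cultures, so p-values measure the spread between these libraries, which may be technical.

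In each group 1 library carries the suffix R2 and the other, called the first library here, carries R1 or, in the control line, no number. Assigned reads ranged from 13211608 to 23819258 per library. Mitochondrially encoded genes took 5.44% to 6.80% of reads in the 6 first libraries and 12.3% to 19.3% in the 6 R2 libraries. NFE2L1 itself stood at 72.7 and 151 FPKM (reads scaled to gene length and library size) in the control vehicle libraries. The KO1 vehicle libraries had 8.45 and 14.8 FPKM of NFE2L1 and those of KO2 had 18.6 and 33.6. On the log2(FPKM + 1) scale its group means were higher in bortezomib, by 0.45 in control, 1.39 in KO1 and 0.76 in KO2. The mean of the knockout lines differed from control by -2.57 in vehicle and -1.94 in bortezomib. The keratins KRT8 and KRT18, markers of epithelial cells, were at 126 to 703 and 112 to 586 FPKM, while the alveolar surfactant genes SFTPA1, SFTPB and SFTPC stayed at or below 0.130 FPKM. The immune and endothelial markers PTPRC, CD3E, PECAM1 and VWF stayed at or below 0.0602 FPKM, CD14 reached 3.63 and COL1A1 reached 23.3.

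When free zinc rises in a cell, MTF1 moves to the nucleus and binds short metal response elements in the promoters of metallothionein genes and of SLC30A1. Metallothionein then holds zinc inside the cell and SLC30A1 moves it out. MT2A is the main isoform in many human epithelial cells, and metallothionein genes also answer to glucocorticoids and to oxidative stress.

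Promoter sequences are shown because they let the metal response element, through which MTF1 acts, be read directly where a match was found. RefSeq promoter entries on GRCh38.p14 were matched for 4 of the 8 genes: MT1X, MT2A, MTF1 and SLC30A1. The 250 bases before each RefSeq start were searched on both strands for the core of the metal response element, TGCACNC or TGCGCNC. MT2A held 7 matches, MT1X held 4, SLC30A1 held 1 and MTF1 held 0. Among all 35116 promoters of that length, 24.8% held a match, 0.370% held 4 or more and 0.0313% held 7 or more. The antioxidant response core TGACNNNGC, looked for in the same way, had 1 match each in MT2A, MT1X and SLC30A1 and 0 in MTF1, against 10.9% of all promoters with a match. CG dinucleotides numbered 32 in the MT2A window, 22 each in those of MT1X and SLC30A1 and 20 in that of MTF1, and the median over all promoters was 11. A match is a description of the letters and not evidence of binding.

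For MT2A, whose window lies inside an exon of a longer GENCODE transcript, only the 7 matches with up to 5 flanking bases are printed, from the farthest to the nearest to the start. For MT1X the stretch before the annotated exon is printed (chr16:56682220-56682423, plus strand, 204 bases) and for SLC30A1 the full window (chr1:211579162-211579411, minus strand, 250 bases). The SLC30A1 window lies before the RefSeq start, which is upstream of the gene start in the expression table (211578742), and unlike the other windows it holds no base of a GENCODE exon and the bases after it were not found in a GENCODE transcript of the gene. Capitals mark the element core, which reads as its reverse complement where the match is on the other strand.

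MT2A, 246 bases before the start: ccgcTGCACCCagccc
MT2A, 168 bases before the start: ggcccGTGTGCAgagcc
MT2A, 153 bases before the start: ccgggTGCGCCCggccc
MT2A, 139 bases before the start: cccagTGCGCGCggccg
MT2A, 88 bases before the start: ggggcGTGTGCAggcag
MT2A, 54 bases before the start: gctttTGCACTCgtccc
MT2A, 8 bases before the start: cgcgcTGCACTCc
MT1X: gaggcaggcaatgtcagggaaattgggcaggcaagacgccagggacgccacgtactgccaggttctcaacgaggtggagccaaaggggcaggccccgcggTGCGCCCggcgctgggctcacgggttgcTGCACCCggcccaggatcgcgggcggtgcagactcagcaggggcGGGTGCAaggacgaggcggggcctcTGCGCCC
SLC30A1: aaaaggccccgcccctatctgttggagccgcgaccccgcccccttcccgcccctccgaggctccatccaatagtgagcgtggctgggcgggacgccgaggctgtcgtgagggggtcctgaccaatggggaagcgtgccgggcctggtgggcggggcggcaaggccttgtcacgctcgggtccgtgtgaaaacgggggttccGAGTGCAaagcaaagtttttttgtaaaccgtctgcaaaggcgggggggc

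MT2A was the main metallothionein of these cells. Its FPKM was 94.8% to 99.7% of the sum over the 6 metallothioneins in every library, and it took 98.3% of the 24471 reads assigned to the 6 genes. The share was lowest in the first control bortezomib library, where MT2A stood at 40.6 FPKM and the 6 genes at 42.8. The sum there over all 21 metallothionein genes and pseudogenes was 46.1 FPKM, so the share of MT2A in that wider sum was smaller. Within single libraries it ranked between 111th and 1487th of all genes by FPKM. MT2A (ENSG00000125148) lies on the plus strand of chromosome 16, from 56608199 to 56609497 in the table, whose positions match GRCh38. The gene length in the table, 1299 bases, equals that whole span with its introns, so its FPKM is scaled to more than the spliced transcript.

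In the control line MT2A stood at 204 and 84.8 FPKM in the first and R2 vehicle libraries and at 40.6 and 24.0 FPKM in the bortezomib libraries. In KO1 it stood at 200.0 and 35.4 FPKM in vehicle and at 44.9 and 28.3 FPKM in bortezomib. In KO2 it stood at 184 and 44.7 FPKM in vehicle and at 53.7 and 28.2 FPKM in bortezomib. The control vehicle and bortezomib libraries did not overlap, whereas in KO1 and KO2 the R2 vehicle library lay below the first bortezomib library. The first vehicle libraries were the highest of all 12, in every line. Each R2 library was below the first library of its group, at 0.177 to 0.631 times its level, and the gap was widest in the KO vehicle groups.

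**Figure D1:**
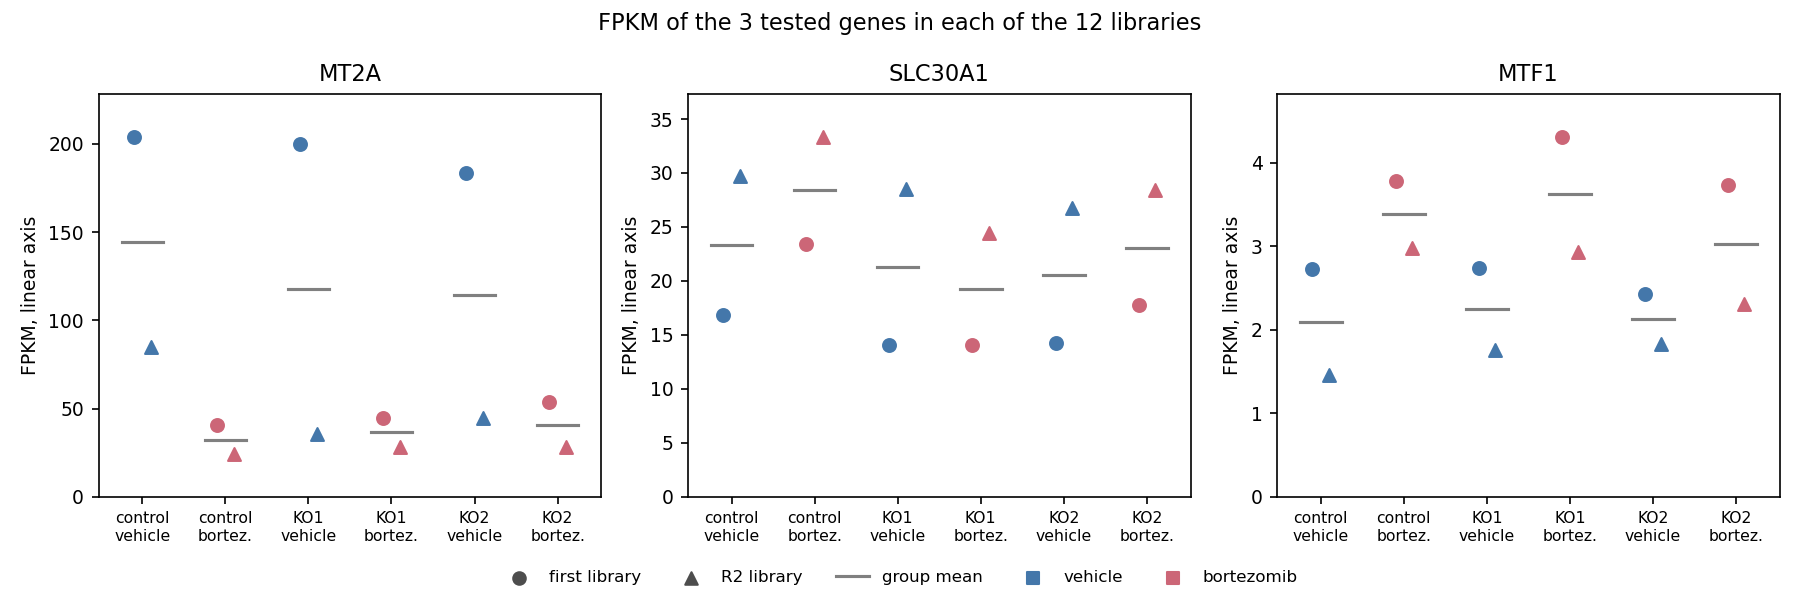
FPKM on linear axes of MT2A, SLC30A1 and MTF1 in each library, by cell line and treatment (2 libraries a group, circles for first libraries, triangles for R2 libraries, blue for vehicle, red for bortezomib, grey lines for group means). MT2A is lower in every R2 library than in the first library of its group. Within the first libraries and within the R2 libraries of each line, MT2A is lower in bortezomib than in vehicle. SLC30A1 is higher in every R2 library than in the first library of its group.

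MT2A was lower in bortezomib than in vehicle in each line when libraries were compared within their suffix, in 6 of 6 pairs. The drug left 19.9%, 22.4% and 29.2% of the vehicle level in the first libraries of control, KO1 and KO2. In the R2 libraries 28.4% was left in control, 79.9% in KO1 and 63.0% in KO2. The difference between group means was -2.04 (SE 0.90) in control, -1.22 (SE 0.90) in KO1 and -1.20 (SE 0.90) in KO2 on the log2(FPKM + 1) scale. Without regard to suffix, limma gave these an adjusted p of 0.399, 0.794 and 0.825. In bulk RNA, fewer cells with the transcript and less transcript per cell cannot be told apart.

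With the suffix as a block in limma the same differences had an SE of 0.39. The adjusted p was then 0.00464 in control, 0.0434 in KO1 and 0.0471 in KO2, so that MT2A fell in all 3 lines. Voom (limma for read counts) on the reads, with the block, gave MT2A adjusted p-values of 1.09e-05, 0.00185 and 0.00229, where it called 37.9%, 33% and 32.4% of all genes.

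The MT2A calls in the knockout lines were close to the threshold and depended on single libraries. With the block, the KO1 difference was -0.58 (adjusted p = 0.307) without the first KO1 vehicle library and -0.65 (adjusted p = 0.342) without the first KO1 bortezomib library. It kept its size but lost the call (limma adjusted p of 0.0550 to 0.0577) without any of the 4 control libraries or either KO2 vehicle library. The KO2 difference was -0.87 (adjusted p = 0.315) without the first KO2 vehicle library, -0.80 (adjusted p = 0.259) without the first KO2 bortezomib library and -1.54 (adjusted p = 0.0892) without the R2 KO2 vehicle library. Leaving out any control library also ended the KO2 call (adjusted p of 0.0595 to 0.0614), and so did leaving out mitochondrial genes (0.0504), quantile normalization (0.0670), a pseudocount of 0.1 (0.0511) or a minimum mean of 0.1 FPKM (0.106). That last minimum also ended the KO1 call (0.0992). The control line kept its call in 10 of 12 such fits and lost it without the first vehicle library (-1.78, adjusted p = 0.0672) or the first bortezomib library (-1.78, adjusted p = 0.0685).

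**Figure D2:**
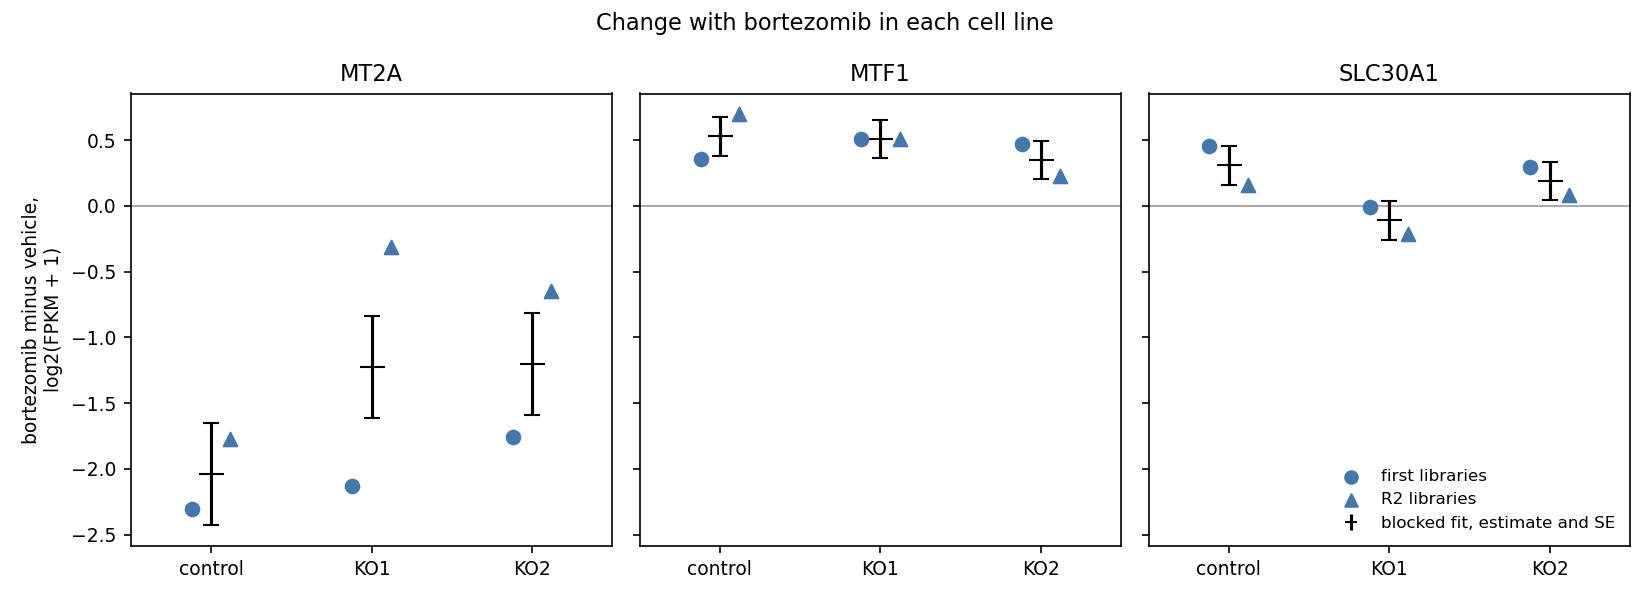
Bortezomib minus vehicle on the log2(FPKM + 1) scale for MT2A, MTF1 and SLC30A1 in each cell line, within the first libraries (circles) and the R2 libraries (triangles), with the estimate and SE of the blocked limma fit in black. MT2A is below 0 and MTF1 above 0 in all 6 pairs; SLC30A1 is above 0 in 4 of 6.

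MT2A was also compared between knockout and control lines, which share their control libraries. In vehicle, KO1 had 98.0% and KO2 90.0% of the control MT2A level in the first libraries, against 41.8% and 52.8% in the R2 libraries. In bortezomib, KO1 had 111% and KO2 132% in the first libraries, and 118% and 117% in the R2 libraries. MT2A was thus lower in the knockout in 4 of 4 vehicle pairs and higher in 4 of 4 bortezomib pairs. The mean knockout difference was -0.58 (SE 0.78, limma adjusted p = 0.9999) in vehicle and 0.25 (SE 0.78, adjusted p = 0.9999) in bortezomib. With the suffix block it was -0.84 (SE 0.41, adjusted p = 0.277) in vehicle and -0.011 (SE 0.41, adjusted p = 0.991) in bortezomib, the latter with its sign turned. The block ties knockout to control through the R2 libraries, because the first control libraries carry no number. It also gives vehicle and bortezomib the same suffix offset, whereas the gap of MT2A between R2 and first library differed between them. That gap (log2) was -2.465 in KO1 and -2.01 in KO2 in vehicle, and -0.65 and -0.91 in bortezomib. In control it was -1.26 in vehicle and -0.73 in bortezomib.

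The difference between lines in the MT2A response to bortezomib was tested as an interaction. It was 0.83 (SE 1.10, limma adjusted p = 1) without the block, 0.83 (SE 0.47, adjusted p = 0.587) with it and 0.81 (SE 0.35, adjusted p = 0.364) in voom with the block. The weaker fall in the knockout lines was therefore not distinguishable from the spread between libraries. Within the first libraries MT2A differed by -2.30 in control, -2.13 in KO1 and -1.76 in KO2 (log2), and within the R2 libraries by -1.78, -0.31 and -0.65. The fall was thus smaller in each knockout line in both sets, by more in the R2 libraries. The R2 libraries also had the higher mitochondrial share, and its part in the result was not tested.

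The sum over the 6 metallothioneins followed MT2A. It was 207 and 85.3 FPKM in control vehicle, 42.8 and 25.3 in control bortezomib, 201 and 35.7 in KO1 vehicle, 46.5 and 28.6 in KO1 bortezomib, 184 and 45.4 in KO2 vehicle, and 54.5 and 28.8 in KO2 bortezomib. Bortezomib minus vehicle on the log2(sum + 1) scale was -1.98 (SE 0.73) in control, -1.20 (SE 1.28) in KO1 and -1.19 (SE 1.10) in KO2, with 2 libraries a group and no test. How reads that match several paralogs were counted is not given in the sources used here. Over windows of 50 bases, 3.0% of MT2A transcript sequence recurred in another family member, against 16.5% for MT1G, 9.9% for MT1M, 7.1% for MT1E, 3.6% for MT1X and 1.2% for MT1F. No window of 100 bases recurred for any of the 6. These shares pool all annotated transcripts of a gene, which for MT2A cover its introns too, and they count exact repeats only. The share of reads that match several paralogs was not measured.

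The other 5 metallothioneins were low, and none reached the mean of 1 FPKM set for the test. MT1F and MT1X had reads in every library, and MT1E, MT1G and MT1M had few or none. All 5 lie in the same chromosome 16 cluster. MT1F (ENSG00000198417, plus strand, 56657694 to 56660698) had 300 reads in all 12 libraries. It stood at 2.44 and 0.283 FPKM in control vehicle and 2.07 and 0.562 in control bortezomib, against 0.305 and 0.0856 in KO1 vehicle, 0.601 and 0.0561 in KO1 bortezomib, 0.516 and 0.495 in KO2 vehicle, and 0.622 and 0.359 in KO2 bortezomib. The first control libraries thus held 110 and 55 reads and each of the other 10 libraries held 2 to 23. The knockout line was below control in 3 of 4 vehicle pairs and in 4 of 4 bortezomib pairs.

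A limma fit with the minimum at 0.1 FPKM included MT1F. The mean knockout difference for MT1F was -0.65 (SE 0.39, adjusted p = 1) in vehicle and -0.66 (SE 0.39, adjusted p = 0.992) in bortezomib. With the suffix block MT1F differed by -0.19 (adjusted p = 0.657) and -0.20 (adjusted p = 0.637). No knockout effect on MT1F was shown beyond the spread between libraries.

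MT1X (ENSG00000187193, plus strand, 56682424 to 56684196) had 93 reads in all, between 2 and 22 a library, and stood between 0.0524 and 0.659 FPKM. Its highest libraries were the R2 control bortezomib library at 0.659 FPKM and the first control vehicle library at 0.450 FPKM, so the control libraries did not order by treatment. MT1X was lower in the knockout line in 4 of 4 vehicle pairs, at 11.6% to 86.3% of control, and in 3 of 4 bortezomib pairs. With the minimum at 0.1 FPKM, limma gave bortezomib differences of 0.066 in control, 0.12 in KO1 and 0.16 in KO2 (adjusted p of 0.970, 0.941 and 0.908). Of MT1X exon bases, 18.1% (321 of 1773) are shared with a transcript on the same strand.

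MT1E (ENSG00000169715, plus strand, 56625475 to 56627112) had 9 reads, in 7 libraries, with at most 2 in any. MT1G (ENSG00000125144, minus strand, 56666731 to 56668065) also had 9 reads, 2 in the first KO1 vehicle library (0.192 FPKM) and 7 in the first KO1 bortezomib library (0.706 FPKM), and 0 in the other 10. MT1M (ENSG00000205364, plus strand, 56632233 to 56633986) had 0 reads in every library, which allows up to 3 reads, or 0.134 to 0.241 FPKM depending on the library. These limits cover counting error alone. At this depth no difference between groups was detectable for the 3 genes.

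**Figure D3:**
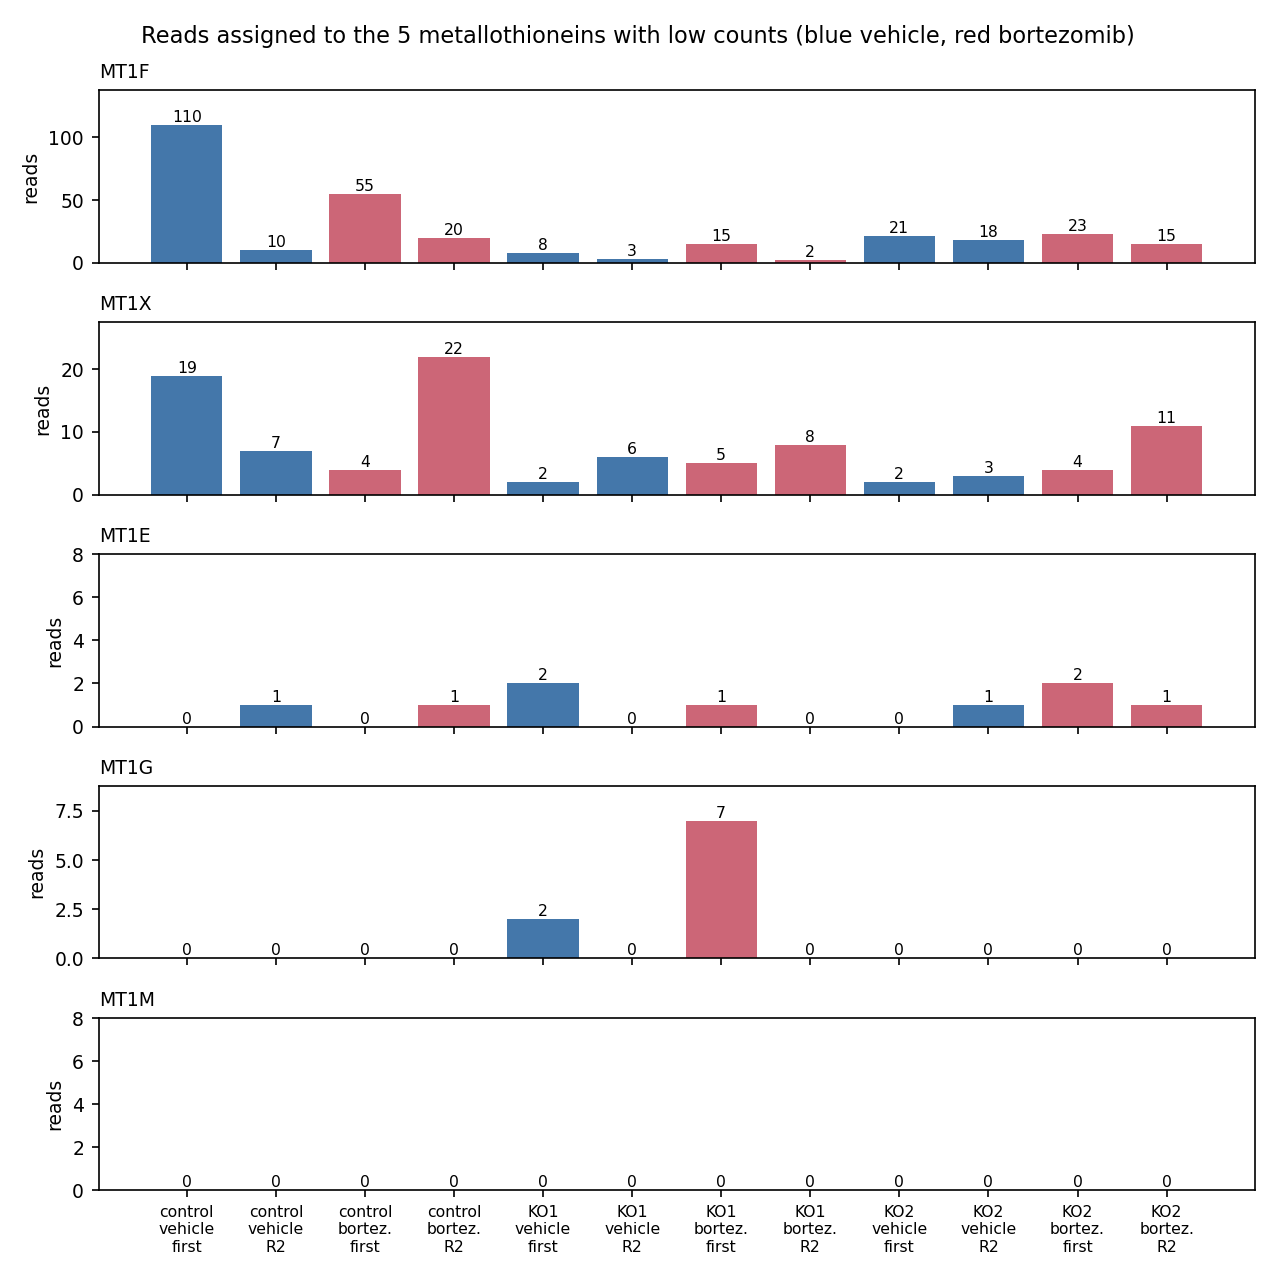
Reads assigned to MT1F, MT1X, MT1E, MT1G and MT1M in each of the 12 libraries, with the count above each bar and a separate axis starting at 0 for each gene. MT1F reaches 110 and 55 reads in the first control libraries, the 7 reads of MT1G in 1 KO1 library stand alone, and MT1M has none.

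Among 15 further metallothionein genes and pseudogenes in the table, 8 were at 0 in every library and MT1A alone passed the minimum, at 0.181 to 3.41 FPKM on 152 reads. MT1A was lower by 0.46 to 0.63 (log2) in bortezomib in the 3 lines, and with the block its adjusted p in limma was 0.241, 0.219 and 0.366. In the table MT1A spans 56638666 to 56750276 on chromosome 16, across MT1F, MT1G and MT1X.

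MTF1, the transcription factor that reads free zinc, moved the other way from MT2A under bortezomib. MTF1 (ENSG00000188786, chromosome 1, 37809567 to 37859620, minus strand) stood at 2.73 and 1.45 FPKM in control vehicle and 3.78 and 2.98 FPKM in control bortezomib, without overlap. In KO1 it stood at 2.74 and 1.76 FPKM in vehicle and at 4.31 and 2.93 FPKM in bortezomib, again without overlap. In KO2 it stood at 2.42 and 1.82 FPKM in vehicle and at 3.74 and 2.31 FPKM in bortezomib, where the R2 bortezomib library lay below the first vehicle library. MTF1 was higher in bortezomib in 6 of 6 pairs, at 127% to 205% of vehicle.

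The MTF1 difference was 0.53 in control, 0.51 in KO1 and 0.35 in KO2 on the log2 scale, each with an SE of 0.32 and with limma adjusted p of 0.594, 0.716 and 0.891. With the block the SE was 0.15 and the adjusted p was 0.0229, 0.0304 and 0.108, so that MTF1 rose in control and in KO1. The control call was lost without the R2 vehicle library (0.36, adjusted p = 0.234) or the R2 bortezomib library (0.36, adjusted p = 0.236). The KO1 call was lost without any 1 of the 4 KO1 libraries (0.49 to 0.52, adjusted p of 0.0860 to 0.162), and at a minimum of 0.1 FPKM (0.0520). The control and KO2 responses of MTF1 differed by -0.18 (SE 0.21 with the block, adjusted p = 0.959), so the lines were not shown to differ. Between knockout and control, MTF1 ratios within pairs lay between 88.7% and 126% in vehicle and between 77.5% and 114% in bortezomib, with no call in limma. A processed pseudogene on the opposite strand lies within MTF1 and shares none of its exon bases.

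SLC30A1, the exporter, was not called for the drug in any line. SLC30A1 (ENSG00000170385, chromosome 1, 211571568 to 211578742, minus strand) stood at 16.8 and 29.8 FPKM in control vehicle and at 23.4 and 33.4 FPKM in control bortezomib. In KO1 it stood at 14.1 and 28.6 FPKM in vehicle and at 14.0 and 24.5 FPKM in bortezomib. In KO2 it stood at 14.3 and 26.8 FPKM in vehicle and at 17.7 and 28.4 FPKM in bortezomib. In each group the R2 library was the higher, by 1.42 to 2.03 times, the reverse of MT2A, and vehicle and bortezomib overlapped in every line.

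The SLC30A1 difference with bortezomib was 0.31 in control, -0.11 in KO1 and 0.19 in KO2 (SE 0.52 each, limma adjusted p of 0.910, 0.986 and 0.988). With the block the SE was 0.15 and the adjusted p was 0.135, 0.604 and 0.362. The exporter was below control in the knockout lines in 4 of 4 pairs in vehicle, at 83.8% to 95.9%, and in 4 of 4 pairs in bortezomib, at 59.8% to 85.2%. The mean knockout difference of SLC30A1 in bortezomib was -0.44 (SE 0.45, limma adjusted p = 0.9999). It was -0.35 (SE 0.15, adjusted p = 0.211) with the block by suffix and -0.44 (SE 0.13, adjusted p = 0.0485) where the unnumbered control libraries were put on the level of R1, a fit in which 12.7% of all genes tested were called. Its interaction of knockout and bortezomib was -0.27 (SE 0.18 with the block, adjusted p = 0.650).

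Of the 8 genes, 3 passed the minimum of 1 FPKM, and MT2A, MTF1 and SLC30A1 were above it in every library. Without the block, limma called 0 of the 3 for bortezomib in each line, where it called 0.467% of all 12194 genes tested in control, 0.238% in KO1 and 0.32% in KO2. At an unadjusted p under 0.05 there was 1 (MT2A in control) and then 0 and 0, and voom without the block called 0 as well. With the block, 2 of 3 were called in control, 2 of 3 in KO1 and 1 of 3 in KO2, where 32.4%, 27.7% and 27% of all genes were called. Limma called 0 of the 3 between KO1 and control, KO2 and control, or KO1 and KO2 in vehicle, with 0 at an unadjusted p under 0.05. In those 3 comparisons limma called 0.213%, 0.23% and 0.0656% of all genes, which the block raised to 5.95%, 4.91% and 3%, none of them members. The mean of the knockout lines against control gave 0 calls among members in vehicle and in bortezomib, where limma called 0.344% and 0.164% of all genes, and 6.18% and 7.66% once suffix was blocked. The interaction gave 0 calls among all genes in limma, with or without the block, and 113 (0.927%) in voom with the block, none of them members.

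Among the zinc importers of the SLC39 family, which bring zinc into the cytosol, more of those called were lower than higher in bortezomib. Of 14 importers 10 were tested. With the block, limma called 1 higher and 5 lower in control, 1 higher and 4 lower in KO1 and 1 higher and 4 lower in KO2, where among all genes 16.1% and 16.4%, 13.9% and 13.8%, and 12.7% and 14.4% were called higher and lower. Without the block it called none of the 10, with none at an unadjusted p under 0.05. Their median difference was -0.42, -0.30 and -0.40 in control, KO1 and KO2, and that of all genes was within 0.024 of 0.

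SLC39A10, an importer of the plasma membrane, fell by 1.30, 1.15 and 1.28 (log2, SE 0.13) in control, KO1 and KO2. SLC39A10 means went from 23.9 ± 14.9 to 8.90 ± 5.23 FPKM (SD, n = 2) in control. SLC39A11 fell by 0.82, 0.65 and 0.69 and SLC39A3 fell by 0.61, 0.39 and 0.55. SLC39A14, which carries zinc and iron, rose by 0.69, 0.85 and 0.79 (SE 0.15), from 66.1 ± 32.9 to 103 ± 36.0 FPKM (SD, n = 2) in control. These changes are those of the blocked fit, with limma adjusted p of 0.000251 to 0.000522 for SLC39A10 and 0.00477 to 0.00993 for SLC39A14.

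Of the 9 exporters other than SLC30A1, 6 were tested. Limma with the block called 2 higher in control, SLC30A3 (0.76, adjusted p = 0.0108) and SLC30A7 (0.51, adjusted p = 0.0345), none in KO1 and 1 in KO2, SLC30A3 (0.61, adjusted p = 0.0307). Of all genes, 32.4%, 27.7% and 27% were called in these fits, and 16.1%, 13.9% and 12.7% were called higher. Without the block it called none of the 6 in any line, with 1 at an unadjusted p under 0.05 in control. SLC30A6 is a subunit of an exporter complex of the early secretory pathway. In the mean of the knockout lines against control in bortezomib it was lower with the block (log2 difference -0.87, SE 0.17, limma adjusted p = 0.0175). That fit called 7.66% of all genes, and without the block SLC30A6 was not called (adjusted p = 0.9999). Medians of the 6 exporters were 0.033, -0.23 and -0.18 in control, KO1 and KO2.

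**Figure D4:**
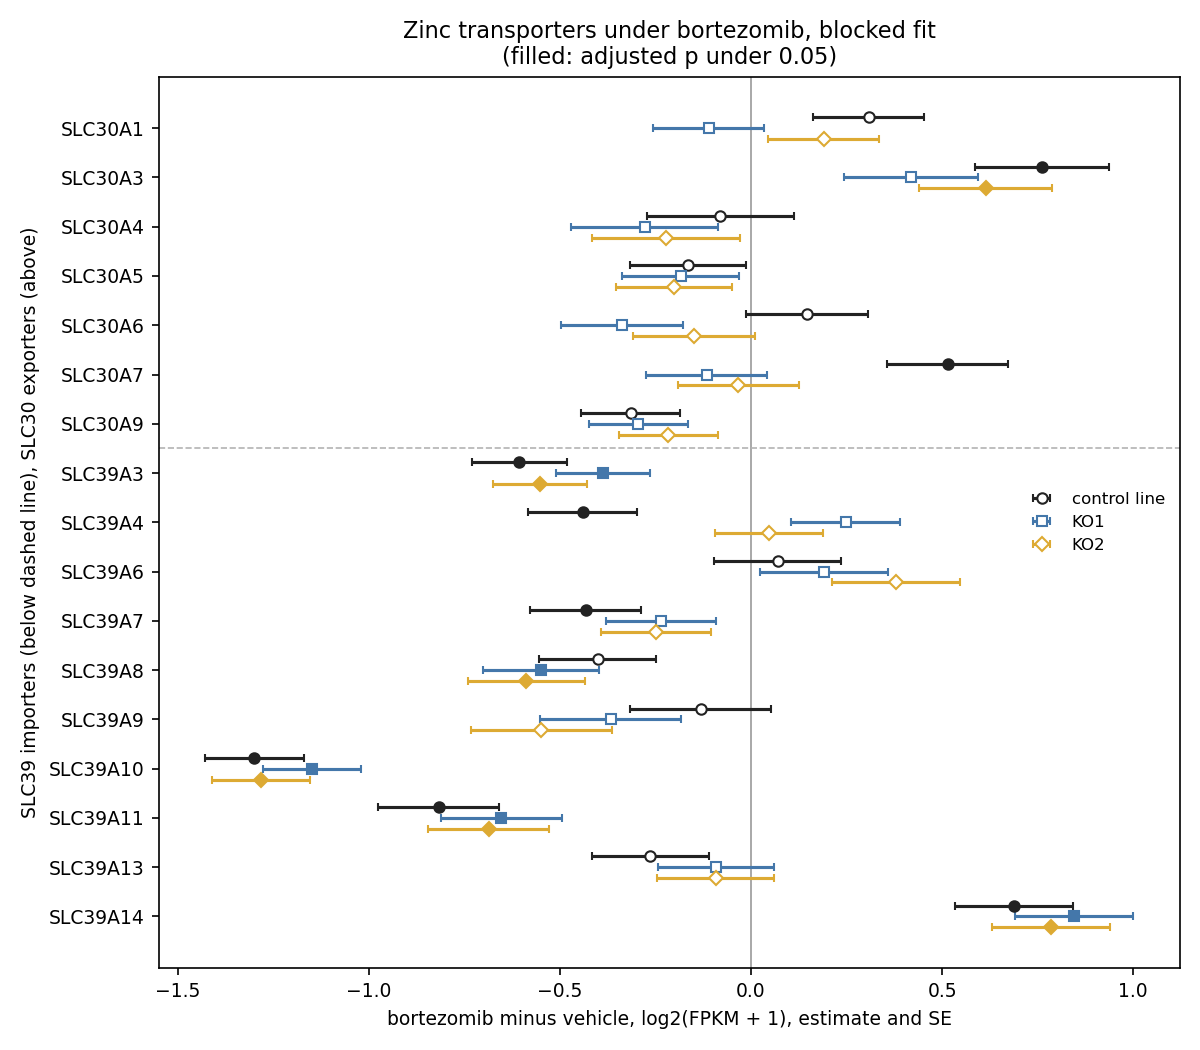
Bortezomib minus vehicle (log2(FPKM + 1), estimate and SE of the blocked limma fit) for SLC30A1, the 6 other exporters and the 10 importers tested, by cell line, filled where the adjusted p was under 0.05. SLC39A10 lies below -1.1 and SLC39A14 above 0.6 in all 3 lines, and SLC30A1 is filled in none.

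Copper handling genes, 7 of 8 tested, gave 1 higher and 2 lower in control and 1 higher and 1 lower in each knockout line with the block. Of all genes, 32.4%, 27.7% and 27% were called in the same fits. SOD1, the copper and zinc superoxide dismutase, rose by 0.77, 1.08 and 0.96 in control, KO1 and KO2 in the blocked fit. ATP7A, a copper exporter, fell by 0.49, 0.80 and 0.76, and COX17, a copper chaperone of mitochondria, fell by 0.73 in control. Without the block limma called none of the 7, with none at an unadjusted p under 0.05.

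Other genes linked to MTF1 were all tested, 6 of 6. With the block limma called 2 higher in control, 3 higher in KO1, and 3 higher and 1 lower in KO2. Of all genes, 16.1%, 13.9% and 12.7% were called higher in these fits, and 14.4% lower in KO2. PGF, placenta growth factor, was the 1 gene of these lists that was called in limma without the block too. PGF went from 0.141 and 0.395 FPKM to 6.33 and 7.04 FPKM in control, from 0.0542 and 0.0725 to 6.70 and 7.27 in KO1, and from 0.0778 and 0.148 to 6.96 and 8.02 in KO2. PGF vehicle and bortezomib libraries did not overlap, with differences of 2.61, 2.91 and 2.93 (log2(FPKM + 1), SE 0.22, adjusted p of 0.00201, 0.000993 and 0.00102). NDRG1 rose by 1.24, 0.99 and 1.11 with the block. In the same blocked fit SELENOW, selenoprotein W, rose by 1.09 in KO1 and 1.15 in KO2, and SLC40A1, the iron exporter ferroportin, fell by 0.87 in KO2. MT2A and PGF thus changed in opposite directions under the drug.

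Genes whose pattern over the 12 libraries was most like the metallothionein sum were POLR2L, CDCA4, GEMIN4, HMGB3 and EFHD2, with Pearson r of 0.975, 0.970, 0.970, 0.968 and 0.967 among 12192 genes after each set of 6 libraries was centred on its mean. For SLC30A1 they were SULF2, TRPM7, DLC1, KLHL15 and CYP7B1, with r of 0.939, 0.919, 0.908, 0.907 and 0.899. MTF1 against the metallothionein sum had r of -0.864 centred and -0.102 uncentred, and SLC30A1 against the sum -0.391 and -0.698. These are descriptions over libraries that differ in depth, drug and cell line.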

How the data were processed

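RNA was sequenced from 12 A549 libraries. Per the submitters' processing notes, the tools were CASAVA, STAR 2.5, HTSeq 0.6.1 and DESeq2 and the build hg19, with no role or order given; the positions in the table match GENCODE 29 on GRCh38 for 95.3% of genes and for all 8 members. The authors deposited FPKM values, 1 column a library, with gene positions and lengths. Whether counting used strand is not given in the sources used here.

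Genes with a mean of at least 1 FPKM (12194) were tested with limma 3.58.1 (R 4.3.3, trend) on log2(FPKM + 1), 6 groups without a block, with Benjamini-Hochberg adjustment over all of them and a threshold of 0.05. A fold on this scale understates the change of low genes. FPKM times length gave whole reads for 100% of values within 0.05 read, and these reads served for voom. Differences between R2 and first library correlated across genes in all 15 pairs of groups (r of 0.696 to 0.890), so the numbers pair the libraries and the suffix was also used as a block (R1, R2 and unnumbered); in fits that leave out a library, the lone sample is assumed to vary like the others. Scripts were tested on simulated data. All 8 members were named, from other lists at most 4 called genes each, and likeness was Pearson r over libraries. The members and lists were chosen with earlier results of these data known.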

Additional observations from a re-analysis of the deposited data

Results flagged for a closer look

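MT2A was lower in the knockout lines than in control in 4 of 4 pairs in vehicle and higher in 4 of 4 in bortezomib. These are opposite directions under the 2 treatments. Only the pairs of R2 libraries match in suffix. The pairs of first libraries set R1 knockout libraries against control libraries without a number. The first KO1 vehicle library was close to control, at 98.0%, and the pairs of KO1 and KO2 share their control libraries. The difference between the treatments was 0.827 (log2), for which limma gave an adjusted p of 1, or 0.587 with suffix as a block.

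SLC30A1 was higher with bortezomib in both control pairs and lower in both KO1 pairs. The first KO1 pair was nearly level, at 99.5% of vehicle, and the R2 KO1 pair was at 85.7%. The KO1 response minus the control response was -0.419 (log2), for which limma gave an adjusted p of 1, or 0.545 with suffix as a block. SLC30A1 was also higher with bortezomib in both KO2 pairs, so the KO2 response minus the KO1 response was 0.301, a difference that was not tested.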

How the results depend on the processing

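The number of members called for bortezomib, 0 without a block, was 2 in control under all 7 blocked fits (by suffix, with unnumbered libraries on R1, voom, and by suffix with mitochondrial genes left out, quantile normalization, a pseudocount of 0.1 or a minimum of 0.1 FPKM). It was 2 in KO1 under 6 of them (0 at the minimum of 0.1 FPKM) and 1 in KO2 under the first 3. For the knockout lines against control in bortezomib it was 1 (SLC30A1) with unnumbered libraries on R1. The replicate block changed no other call of a member. MT2A in knockout against control in bortezomib (0.25) turned to -0.011 with the block by suffix, also at a minimum of 0.1 FPKM, to -0.036 in voom with the block and to -0.0077 with a pseudocount of 0.1 and the block. It did not turn where the unnumbered libraries were put on the level of R1. Without the block, leaving out 1 library at a time gave MT2A differences of -2.46 to 0.0099 with bortezomib in KO1. For knockout against control they were -1.21 to 0.048 in vehicle and -0.12 to 0.61 in bortezomib. The same fits gave SLC30A1 differences with bortezomib of -0.086 to 0.70 in control, -0.60 to 0.37 in KO1 and -0.24 to 0.62 in KO2. Their SLC30A1 interaction was -0.66 to 0.13. Each such fit leaves a group with a lone first or R2 library, set against groups that hold both. With the block, MT2A in KO1 kept its direction in 12 of 12 such fits (-1.86 to -0.58). The cause of these turns was not tested. The family sum kept its direction in all 7 comparisons under 5 alternatives. With mitochondrial genes left out and the block, the median of all genes moved to 0.11 for knockout against control in vehicle. The blocked alternatives with another scaling, pseudocount or minimum, and the blocked leave-one-out fits, were chosen after seeing the data. With 2 libraries a group, depth limits MT1E, MT1G, MT1M and MT1X most.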
